A study of Mus musculus with 2 samples.

Results

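The genes described here are 9 markers used to tell epithelial from mesenchymal cells by how they hold to their neighbours and to the matrix: Cdh1, Cdh2, Cdh3, Epcam, Vim, Fn1, Snai2, Zeb1 and Cd44. They were taken by symbol, each matched 1 gene identifier in both libraries, and they stand among 31053 genes listed. Their levels are given by library and in cells with a UMI of Acta2 (smooth muscle alpha-actin) against the other cells. The organoids were grown from the urothelium, the stratified epithelium that lines the bladder, of wild-type C57BL/6 mice of 8 to 10 weeks, and 1 droplet-based single-cell library (10x Genomics 3′ chemistry) was made from each of 2 cultures. Proliferative organoids (P) were kept in complete medium, which contained EGF, Noggin, RSPO1, WNT3A and LY2157299. The last of these blocks the TGF-β receptor. Differentiated organoids (D) were first grown in that same medium and then kept in a medium lacking all of these. For differentiation experiments the study's methods describe reseeding, without breaking up, before culture in either medium. Per the study's methods, cultures were started from unsorted urothelial digests, so that no selection on EpCAM protein preceded them. With 1 library per condition there was no replicate error, no test was run and no p-value is given. The intervals are exact 95% intervals that cover counting error only.

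Epithelial cells join each other at adherens junctions, where classical cadherins bind across the cell border and are tied to actin through catenins. In an epithelial-mesenchymal transition, repressors of the SNAI and ZEB families bind E-box letters at epithelial genes, E-cadherin is lost, and N-cadherin, vimentin and fibronectin are gained. In the urothelium, basal cells carry P-cadherin and CD44 and lie on the basement membrane, and umbrella cells facing the lumen carry uroplakins.

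The libraries held 8194 (P) and 6975 (D) barcodes, of which 6818 and 4896 had over 800 genes and at most 12% mitochondrial UMIs and were kept. A UMI (unique molecular identifier) stands for 1 captured RNA molecule, and the kept cells held 26681469 UMIs in P and 20305621 in D. The median cell had 3405.5 and 3227.5 UMIs. Levels are UMIs summed over cells per 1000000 UMIs (CPM), and they are compared only within a gene. The 77 ribosomal protein genes took 37.2% of the UMIs in P and 21.2% in D, and the median gene lay 0.42 higher in D on the log2 scale, so each member's log2 ratio between the whole libraries is given a second time with this shift removed. Only 10 barcodes occurred in both libraries. Urothelial epithelium markers (Krt5, Krt7, Krt8, Krt14, Krt18, Krt19 and Trp63) were detected in both libraries, 7 of 7, and Krt5 had a UMI in 98.9% of P cells and 98.1% of D cells.

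The 3 cadherins are typical of different tissues. Cdh1 (E-cadherin, ENSMUSG00000000303) lies at chr8:106603351-106670246 on the plus strand of GRCm38, and Cdh3 (P-cadherin, ENSMUSG00000061048) on the same strand at chr8:106510891-106557297. Cdh2 (N-cadherin, ENSMUSG00000024304) lies at chr18:16588877-16809246 on the minus strand. Epcam (ENSMUSG00000045394, plus strand, chr17:87635979-87651129) encodes the epithelial cell adhesion molecule, and Cd44 (ENSMUSG00000005087, minus strand, chr2:102811141-102901665) the hyaluronan receptor. Vim (ENSMUSG00000026728, plus strand, chr2:13573927-13582826) encodes the intermediate filament protein of mesenchymal cells, and Fn1 (ENSMUSG00000026193, minus strand, chr1:71585520-71653200) the matrix glycoprotein fibronectin. Snai2 (ENSMUSG00000022676, plus strand, chr16:14705852-14709385) and Zeb1 (ENSMUSG00000024238, plus strand, chr18:5591860-5775467) encode the transcription factors Slug and ZEB1. All are protein-coding.

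Snai2 and Epcam were both measured at usable depth in these cells, and the E-box read by factors of the SNAI and ZEB families is spelled CACCTG, or CAGGTG on the other strand. The promoter sequences of 3 members, Epcam, Cd44 and Vim, were found in the RefSeq promoter table (GRCm38.p6). The 250 bases before the annotated start are shown for Epcam (chr17:87635729-87635978, plus strand) and Cd44 (chr2:102901666-102901915, minus strand), as 1 window with these letters and 1 without, in lower case with each match in capitals:

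Epcam: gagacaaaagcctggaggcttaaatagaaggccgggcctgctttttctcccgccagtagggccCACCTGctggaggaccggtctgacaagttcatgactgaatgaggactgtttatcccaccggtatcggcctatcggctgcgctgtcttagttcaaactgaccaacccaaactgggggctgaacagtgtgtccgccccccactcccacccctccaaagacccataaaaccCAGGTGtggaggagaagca

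Cd44: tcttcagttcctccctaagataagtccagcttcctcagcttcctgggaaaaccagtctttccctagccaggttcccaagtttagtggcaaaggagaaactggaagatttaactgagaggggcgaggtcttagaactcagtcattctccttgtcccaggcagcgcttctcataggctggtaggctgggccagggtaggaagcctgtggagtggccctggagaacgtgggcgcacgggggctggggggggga

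The Epcam window held CACCTG beginning 187 bases before the start and CAGGTG beginning 19 bases before it. The Cd44 window held neither spelling. Of 32851 RefSeq promoter windows of the same length, 17.2% held at least 1 of the 2 spellings and 0.977% held both. A match is a run of letters and not a measured binding site.

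Cdh1, Epcam and Cdh3 were higher in D than in P, Fn1 was 25.4-fold higher in D, Cd44 was at like levels in both, and Vim, Cdh2 and Zeb1 were near the floor in both libraries. Among the 6 members with at least 100 UMIs over both libraries, 2 (Cdh1 and Fn1) passed a 2-fold difference with the higher level in D, and 0 passed it with the lower. Of all 10719 genes past that minimum, 13.5% passed this fold with the higher level in D and 4.73% with the higher level in P. With the median shift removed, Fn1 alone stayed past the fold, against 5.64% of genes higher and 8.65% lower. Whether a library level changed because cells of a type became more frequent or because each of them held more RNA cannot be told apart in these sums.

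Cdh1 had 3084 UMIs in P and 5999 in D, or 116 CPM (112 to 120) and 295 CPM (288 to 303). The log2 ratio was 1.35 (1.29 to 1.42), and 0.93 with the shift removed. Epcam had 8495 and 9558 UMIs, or 318 CPM in P (312 to 325) and 471 CPM in D (461 to 480). Its log2 ratio of 0.56 (0.52 to 0.61) lay close to the shift of the median gene and came to 0.14 without it. The intervals of both epithelial genes were apart between the libraries, and the difference was larger for Cdh1.

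Cdh3, the cadherin of basal cells, had 506 UMIs in P and 661 in D, or 19.0 CPM (17.3 to 20.7) and 32.6 CPM (30.1 to 35.1). Its log2 ratio was 0.78 (0.61 to 0.95), and 0.36 with the shift removed. Cd44 had 2573 and 2114 UMIs, or 96.4 CPM in P and 104 CPM in D, a log2 ratio of 0.11 (0.03 to 0.19) that turned to -0.31 once the shift was removed. The direction of Cd44 between the libraries therefore depended on the scaling.

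Snai2 was the 1 member past the minimum that lay lower in D on both scales. It had 1148 UMIs in P and 696 in D, or 43.0 CPM (40.6 to 45.6) and 34.3 CPM (31.8 to 36.9), a log2 ratio of -0.33 (-0.47 to -0.19) and of -0.75 with the shift removed. Zeb1, the other repressor, had 2 UMIs in P and 20 in D.

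Fn1 showed the largest ratio of the members past the minimum. It had 24 UMIs in P, never more than 1 in a cell, and 464 in D, with up to 9 in a cell. These came to 0.90 CPM (0.58 to 1.34) and 22.9 CPM (20.8 to 25.0), which is 25.4-fold higher in D (16.9 to 40.1). With the shift removed its log2 ratio was 4.25, against 4.67 before. Some markers of other cell types were also higher in D. The 6 fibroblast markers summed to 1.99 CPM in P (1.49 to 2.60) and 62.5 CPM in D (59.2 to 66.1), most of it from Dcn (the fibroblast proteoglycan decorin, 40 and 1234 UMIs), with Col1a2 at 0 in both. The 7 leukocyte markers summed to 0.375 and 19.8 CPM, nearly all of it in D Laptm5 (7 and 400 UMIs), with Tyrobp and Cd3e at 0 in both. The pericyte markers came to 27.0 and 49.3 CPM, most of it from Notch3 (715 and 772 UMIs), with Rgs5 at 0 and 227 UMIs and Pdgfrb at 1 and 0. The smooth muscle markers besides Acta2 (0.412 and 0.295 CPM), the endothelial (5.17 and 3.35 CPM) and the glial markers (1.499 and 2.41 CPM) were low in both. Their part in the difference of Fn1 or of other members was not tested.

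Vim had 8 UMIs in P and 3 in D, so that the gene of the mesenchymal filament protein was nearly undetected in both cultures. Cdh2 had 0 UMIs in P, below a floor of 3 UMIs or 0.112 CPM per library, and 20 in D, at least 8.76-fold higher than that floor. The exact counting interval of the ratio itself begins lower, at 6.49-fold. At 20 UMIs among 20305621, Cdh2 and Zeb1 stood at 0.985 CPM each in D (0.602 to 1.52). N-cadherin RNA was seen in 17 of the 4896 D cells.

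**Figure D1:**
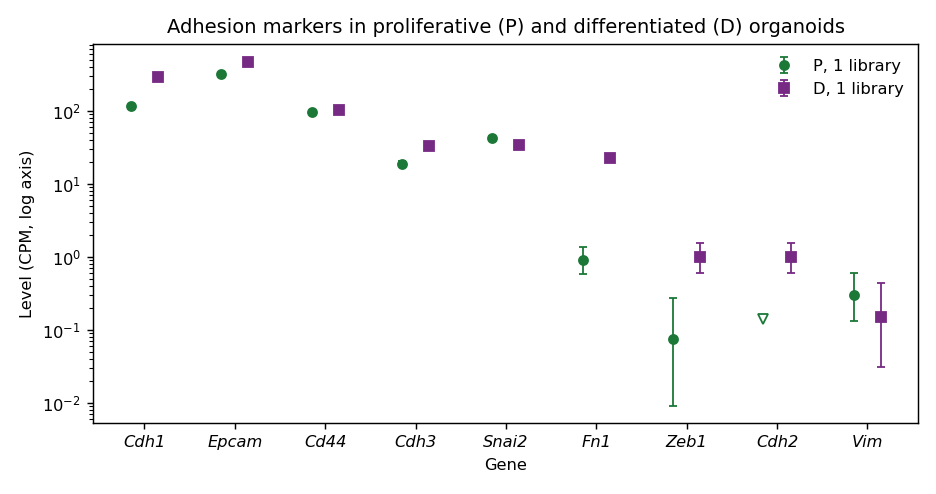
Level of each member in P (green circles) and D (purple squares), in CPM on a log axis, with exact 95% Poisson intervals where these exceed the symbol and an open triangle at the upper limit of a count of 0 (Cdh2 in P). Fn1 stands at 0.90 CPM in P and 22.9 CPM in D, Cdh1 at 116 and 295 CPM, and the P and D symbols of Cd44 lie side by side at 96.4 and 104 CPM.

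Shares of cells followed the levels once depth was made equal. Each cell was thinned to 2100 UMIs, which left out 180 shallower cells in P and 479 in D. Cdh1 then had a UMI in 18.4% of P cells (17.4 to 19.3) and 43.6% of D cells (42.1 to 45.1), and in 30.1% and 59.1% before thinning. Epcam had one in 46.0% and 61.8% of thinned cells (63.3% and 77.4% before), and Cdh3 in 4.29% and 6.91% (6.91% and 11.7% before). Fn1 was found in 0.211% of P cells (0.115 to 0.354) and 3.92% of D cells (3.36 to 4.53), against 0.352% and 6.33% before thinning. For Cdh1, Epcam, Cdh3 and Fn1 the share was thus higher in D with intervals that were apart. How many of all genes did the same was not counted. Thinning to equal UMIs does not remove the shift of the median gene, 0.42 on the log2 scale, so shares carry that shift as CPM does.

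Snai2 was found in 9.14% of thinned P cells (8.46 to 9.86) and 6.34% of D cells (5.64 to 7.10), again the lower in D, and in 13.7% and 11.4% before thinning. Cd44 was found in 17.5% (16.6 to 18.5) and 18.3% (17.2 to 19.5), with intervals that overlapped. In the thinned cells Vim was found in 4 P cells and 1 D cell, Zeb1 in 2 and 9, and Cdh2 in 6 D cells. For Cdh2 in P, 0 of 6638 cells allows a share of up to 0.0452% by the limit of 3 counts, and of up to 0.0556% by the exact 95% interval. Uroplakin-positive D cells, an epithelial class that should lack Vim, held it in 1 of 1562 cells, at a median depth before thinning of 3890.5 UMIs against 3395 in all D cells.

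The cells with a UMI of the rare mesenchymal members carried epithelial transcripts, as did most cells of both libraries. Before thinning, Krt5 had a UMI in 98.9% of P and 98.1% of D cells, and Epcam in 63.3% and 77.4%. Of the 6 P cells with Vim, 5 also had an Epcam UMI and 6 had Krt5, the basal and intermediate keratin. Both D cells with Vim had at least 2 uroplakin UMIs. Of the 17 D cells with Cdh2, 12 had Epcam and 17 had Krt5, 7 had at least 2 uroplakin UMIs, and 0 had Acta2. Only 4.39% of all kept D cells had Acta2, so 0 of 17 cells cannot show a lower share. Of the 19 D cells with Zeb1, 18 had Epcam, 15 had Cdh1, 19 had Krt5, and 14 had at least 2 uroplakin UMIs, with a median of 4613 UMIs per cell. Of these, 2 had Laptm5, a lysosomal protein of blood cells, and 1 had Dcn. The 2 P cells with Zeb1 both had Epcam and Krt5, 1 had the endothelial gene Pecam1, and their median depth was 14042.5 UMIs. None of the cells with Vim, Cdh2 or Zeb1 had a UMI of Ptprc, the pan-leukocyte phosphatase, or of the collagen gene Col1a1. Both genes were nearly absent from the libraries, with 1 UMI of Ptprc in P and 2 in D, and 0 and 10 of Col1a1. These zeros therefore cannot tell cell types apart.

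Cells with Fn1 also carried Krt5 and mostly Epcam. All 310 D cells with Fn1 had Krt5, 268 had Epcam and 149 had Cdh1. Of all kept D cells, 98.1% had Krt5, 77.4% Epcam and 59.1% Cdh1 at the same full depth. Among the 310 cells, 0 had Vim, which only 2 D cells held, and 4 had Col1a1, which had only 10 UMIs in all kept D cells. Dcn had a UMI in 81 of the 310. No share of all D cells with Dcn or Col1a1 is set beside these counts, so whether they are more frequent with Fn1 was not tested. The 24 P cells with Fn1 included 17 with Epcam and 24 with Krt5. At equal depth in D, Epcam was detected in 70.5% of the 173 Fn1-positive cells (63.1 to 77.2) and in 61.5% of the Fn1-negative cells (60.0 to 62.9). Cdh1 went the other way and was detected in 26.0% of Fn1-positive cells (19.6 to 33.2) against 44.3% of Fn1-negative cells (42.8 to 45.8). The intervals were apart for both genes, though those of Epcam by little. The size of both differences depended on the depth used: that of Epcam was 9.05 percentage points, and 5.43 in cells thinned to 3000 UMIs, and that of Cdh1 was -18.3 points, and -11.8 before thinning.

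Cdh1 was also the less frequent beside Snai2. In P, 12.4% of the 607 Snai2-positive cells had Cdh1 (9.84 to 15.2) against 19.0% of Snai2-negative cells (17.99 to 19.98). In D these shares were 36.1% (30.4 to 42.0) and 44.1% (42.6 to 45.6). The Epcam share did not separate with Snai2, at 62.9% (56.9 to 68.5) and 61.8% (60.3 to 63.2) in D. Cdh3-positive D cells held Cdh1 in 36.7% (31.3 to 42.4) against 44.1% of the others, and Cd44-positive D cells in 46.4% (42.9 to 49.9) against 42.9% (41.3 to 44.6). These splits, and those by Fn1, did not hold cell classes apart. Thinned uroplakin-positive D cells had Cdh1 in 50.4%, but Snai2 in 2.43%, Cdh3 in 1.98% and Fn1 in 0.896%. In cycling P cells Cdh1 was found in 8.47% and Snai2 in 16.9%. Whether the differences hold within a class was not tested.

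**Figure D2:**
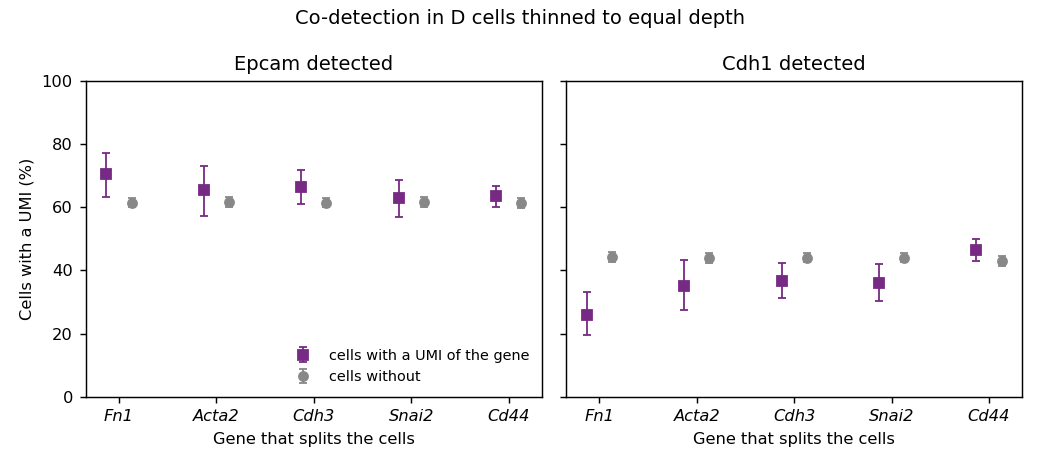
Share of D cells thinned to 2100 UMIs with a UMI of Epcam (left) or Cdh1 (right), in percent, among cells with (purple squares) and without (grey circles) a UMI of the gene on the horizontal axis, with exact 95% binomial intervals. Cdh1 was detected in 26.0% of Fn1-positive and 44.3% of Fn1-negative cells, while Epcam was detected in 70.5% and 61.5%.

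Cdh1, Cdh3, Snai2 and Fn1 differed between cell classes drawn without any member gene. Kept cells were called cycling if at least 2 of 12 proliferation genes were detected, otherwise uroplakin-positive at 2 or more uroplakin UMIs, otherwise Acta2-positive at 1 or more Acta2 UMIs, and otherwise remaining. P held 499 cycling, 90 uroplakin-positive, 15 Acta2-positive and 6214 remaining cells, and D held 104, 2127, 155 and 2510. The 15 Acta2-positive cells of P were too few for a class level. Median depth differed between classes, from 2726.5 UMIs in the remaining D cells to 4004 in uroplakin-positive and 5961.5 in cycling D cells.

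In D, 3 members (Cdh3, Snai2 and Fn1) were at least 2-fold lower in uroplakin-positive than in remaining cells and 0 were at least 2-fold higher. Of 9222 genes tested there, 2.93% were lower and 2.78% higher. Cdh3 stood at 56.0 CPM in remaining cells (50.8 to 61.5) and 14.6 CPM in uroplakin-positive cells (12.5 to 17.1), a log2 ratio of -1.94 (-2.20 to -1.67). Snai2 stood at 60.9 CPM (55.5 to 66.7) and 13.5 CPM (11.4 to 15.8), a log2 ratio of -2.18 (-2.45 to -1.91). Fn1 stood at 30.7 and 6.52 CPM, a log2 ratio of -2.23 (-2.63 to -1.85). Cdh1 had the opposite sign, with 238 CPM (227 to 249) in remaining cells and 341 CPM (331 to 352) in uroplakin-positive cells, a log2 ratio of 0.52 (0.44 to 0.60). Epcam (-0.07, -0.13 to -0.01) and Cd44 (-0.02, -0.15 to 0.11) were nearly level between these classes.

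In P, Cdh3, Snai2 and Cdh1 had the same directions, the first 2 on few UMIs. Its uroplakin-positive cells held 3 UMIs of Cdh3 and 6 of Snai2, with log2 ratios over remaining cells of -1.80 (-4.08 to -0.24) and -1.95 (-3.40 to -0.82), so that 2 members were at least 2-fold lower there and 0 higher, against 11.8% and 6.26% of 9185 genes. Cdh1 was at 212 CPM (176 to 253) there and 117 CPM (113 to 122) in remaining cells, a log2 ratio of 0.86 (0.58 to 1.12). Epcam, nearly level in D, was at 0.40 in P (0.20 to 0.59). Cycling P cells had the lowest Cdh1, at 72.2 CPM (61.7 to 84.1), and the highest Snai2, at 80.0 CPM (68.9 to 92.4), with a log2 ratio of Snai2 over remaining cells of 1.003 (0.77 to 1.23). It crossed the 2-fold line by little and came to 0.80 with that comparison's shift of 0.20 removed. On CPM that was the 1 member at least 2-fold higher in cycling than in remaining P cells, against 5.82% of 9443 genes, and 0 were at least 2-fold lower, against 2.90%. Cycling D cells stood at 280 CPM of Cdh1 (243 to 320) and 47.3 CPM of Snai2 (33.1 to 65.5). Of the members, Cdh3 was at least 2-fold lower in cycling than in remaining D cells, at 21.0 CPM (12.01 to 34.1), against 1.80% of 7337 genes lower and 1.06% higher.

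In order of level, Cdh1 ran from uroplakin-positive D cells over cycling D, remaining D, uroplakin-positive P, Acta2-positive D and remaining P cells to cycling P cells. In that order the intervals of cycling D, remaining D, uroplakin-positive P and Acta2-positive D cells each overlapped with the next, and the others were apart. Snai2 ran from cycling P cells over Acta2-positive D, remaining D, cycling D, remaining P and uroplakin-positive D cells to uroplakin-positive P cells, and of these neighbours only remaining P and uroplakin-positive D cells had intervals apart. Cdh3 ran from Acta2-positive D cells at 77.6 CPM (57.6 to 102) over remaining D (56.0) to cycling P cells at 31.1 CPM (24.4 to 39.2), followed by cycling D, remaining P, uroplakin-positive D and uroplakin-positive P cells. Among these only remaining D and cycling P cells were neighbours with intervals apart. Epcam was highest in Acta2-positive D cells, at 598 CPM (539 to 660), and lowest in remaining P cells, at 302 CPM (295 to 309), both apart from their neighbours, and the 5 classes between them (399 to 480.0 CPM) overlapped each with the next. Fn1 ran from Acta2-positive D cells at 219 CPM over remaining D and cycling D cells at 30.7 and 18.4 CPM (10.1 to 30.9), which overlapped, to uroplakin-positive D cells at 6.52 CPM (5.11 to 8.19) and to P classes at or below 1.30 CPM. Cd44 moved least, between 88.0 CPM in uroplakin-positive P cells and 121 CPM in cycling D cells, with overlapping intervals at these ends. Within P, however, cycling cells at 118 CPM (104 to 133) lay apart from remaining cells at 94.4 CPM (90.5 to 98.4), a log2 ratio of 0.32 (0.14 to 0.50). It came to 0.12 with that comparison's shift of 0.20 removed, and how many of all genes lay apart was not counted.

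**Figure D3:**
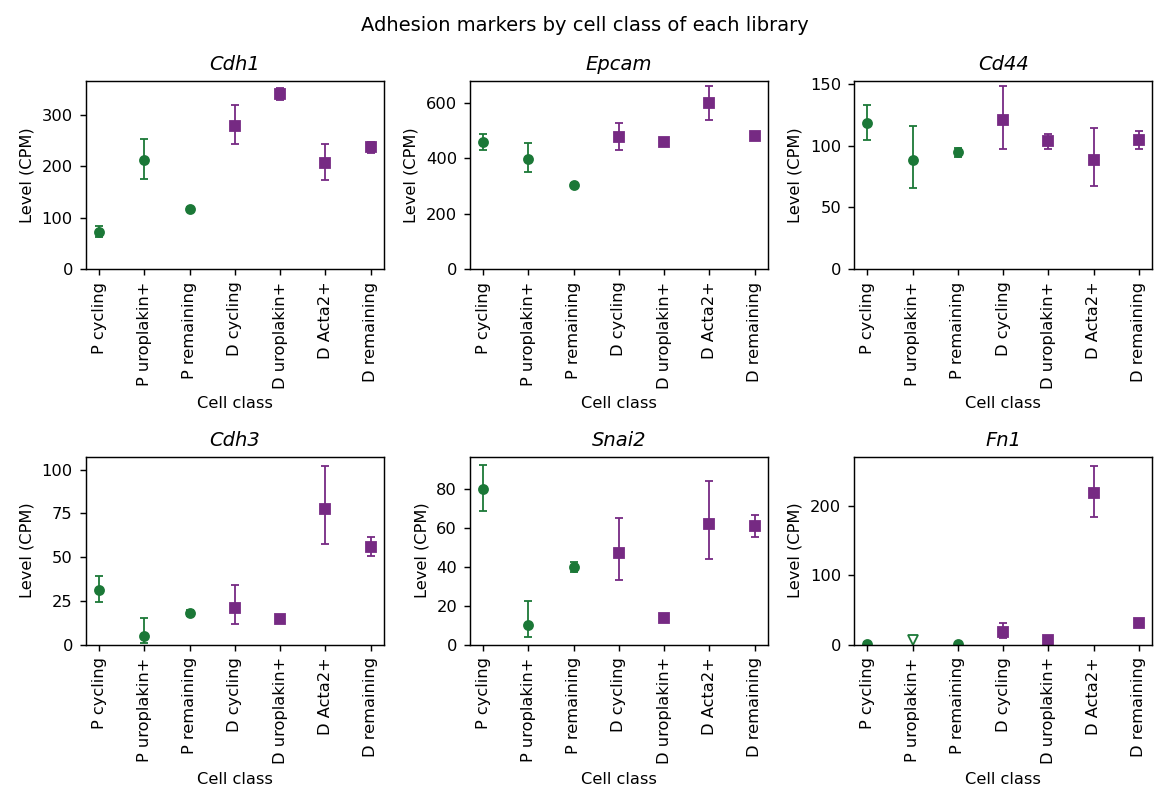
Level in CPM of the 6 members with at least 100 UMIs in each class of P cells (green circles) and D cells (purple squares), with exact 95% Poisson intervals where these exceed the symbol and an open triangle at the upper limit of a count of 0. In D, Cdh3, Snai2 and Fn1 are at 14.6, 13.5 and 6.52 CPM in uroplakin-positive cells and at 56.0, 60.9 and 30.7 CPM in remaining cells, while Cdh1 is at 341 and 238 CPM.

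Because 43.4% of D cells but 1.32% of P cells were uroplakin-positive, the libraries were also compared within remaining cells, a comparison added after the data were seen. There Snai2 was higher in D, at 60.9 against 39.9 CPM, a log2 ratio of 0.61 (0.45 to 0.77) that fell to 0.11 with that comparison's own shift of 0.50 removed. The lower Snai2 of the whole D library was therefore not seen among the remaining cells. Cdh3 separated further there, at 56.0 against 18.0 CPM, a log2 ratio of 1.64 (1.44 to 1.83) and 1.14 with the shift removed. Cdh1 had a log2 ratio of 1.02 (0.93 to 1.11) and 0.52 with the shift removed, Epcam 0.67 and 0.17, and Fn1 5.11 (4.47 to 5.83) and 4.62. Thus 3 members (Cdh1, Cdh3 and Fn1) were at least 2-fold higher in D among remaining cells and 0 lower, against 14.3% and 4.03% of 9934 genes. With the shift removed there were 2 (Cdh3 and Fn1), against 4.68% higher and 8.80% lower.

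Among uroplakin-positive cells, Cdh1 was at a log2 ratio of D over P of 0.69 (0.43 to 0.96), and Cdh3 at 1.5003 (-0.07 to 3.79), on 3 UMIs in P, with an interval that reached below 0. With the shift of -0.11 removed Cdh3 was at 1.61. Cdh3 was the 1 member past the fold there and 0 were lower, against 21.5% of 8066 genes higher and 3.07% lower. The same count held with the shift removed, against 25.6% and 2.54%. Among cycling cells, Cdh1 had a log2 ratio of 1.95 (1.65 to 2.25) and Snai2 one of -0.76 (-1.32 to -0.24). Past the fold were Cdh1, higher, and 0 lower, against 9.27% of 3658 genes higher and 6.78% lower. With the shift of 0.29 removed, Cdh1 was at 1.66 and Snai2 at -1.05, which made 1 member higher and 1 lower, against 4.87% and 11.4%. Cdh1 thus had its higher level in D within each of these 3 classes. The cycling class was called first and at full depth, so it can hold cells with uroplakin UMIs. At equal depth it held 366 P and 33 D cells, of which 8.47% (5.83 to 11.8) and 27.3% (13.3 to 45.5) had Cdh1.

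Acta2 (ENSMUSG00000035783, minus strand, chr19:34241090-34255590) encodes the actin of smooth muscle and of myoepithelial cells. It had 28 UMIs in 21 P cells, or 0.308% of kept cells (0.191 to 0.470), and never more than 3 in a cell. In D it had 837 UMIs in 215 cells, or 4.39% (3.83 to 5.003), and 48 cells with over 5 UMIs held 534 of them. At equal depth 3.42% of D cells had Acta2, against 1.22% of uroplakin-positive D cells (0.734 to 1.89), a class that should lack it. Median depth was 4054 UMIs in Acta2-positive and 3194 in other D cells, and 4078 and 3405 in P. Of the 215 D cells, 56 had at least 2 uroplakin UMIs.

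In D, Acta2-positive cells had far more Fn1, more Cdh3 and Snai2, slightly more Epcam and less Cdh1 than the other cells, with Acta2 itself left out of the totals. Past the fold were 2 members (Fn1 and Cdh3), both higher, and 0 lower, against 2.62% of 9397 genes higher and 3.56% lower. Fn1 had 170 UMIs in the 215 Acta2-positive cells and 294 in the 4681 others, or 152 CPM (130 to 177) and 15.3 CPM (13.6 to 17.2), which is 9.94-fold higher (8.18 to 12.05). Fn1 had a UMI in 24.5% of thinned Acta2-positive cells (17.9 to 32.2), 3.19% of the others and 0.896% of uroplakin-positive cells (0.491 to 1.499). The 155 Acta2-positive cells that were neither cycling nor uroplakin-positive held 30.4% of the Fn1 UMIs of D with 3.17% of its kept UMIs, and remaining cells held 50.9%.

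Cdh3 stood at 62.7 CPM in Acta2-positive cells (48.9 to 79.2) and 30.8 CPM in the others (28.4 to 33.4), a log2 ratio of 1.03 (0.65 to 1.38). It crossed the 2-fold line by little and came to 0.95 with the shift of the median gene, 0.08, removed, after which Fn1 alone was past the fold, against 2.17% of genes higher and 4.52% lower. Snai2 stood at 53.7 (41.0 to 69.2) and 33.1 CPM (30.6 to 35.8), a log2 ratio of 0.70 (0.29 to 1.08). Epcam stood at 534 (492 to 579) and 467 CPM (457 to 477), a log2 ratio of 0.19 (0.07 to 0.31). Cdh1 was lower at 236 CPM (209 to 267) against 299 CPM (291 to 307), a log2 ratio of -0.34 (-0.52 to -0.16). Cd44, at 99.4 and 104 CPM, had an interval of -0.36 to 0.21 around -0.07. Vim had 1 UMI in Acta2-positive cells and 2 in the others, Zeb1 1 and 19, and Cdh2 0 and 20.

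Snai2, Cdh3 and Cdh1 lay closer to level when uroplakin-positive cells were held out. Set against remaining cells only, which hold no cycling or uroplakin-positive cells, the 155 Acta2-positive cells of D had a log2 ratio of Snai2 of 0.03 (-0.47 to 0.50), of Cdh3 of 0.47 (0.02 to 0.90) and of Cdh1 of -0.20 (-0.47 to 0.05). Fn1 was still higher, at 219 CPM (184 to 258) against 30.7 CPM (26.9 to 34.8), a log2 ratio of 2.84 (2.53 to 3.14), and Epcam at 0.32 (0.16 to 0.47). Fn1 was the 1 member past the fold in that comparison, against 2.27% of 7299 genes higher and 5.99% lower. In cells without any uroplakin UMI that were not cycling, Snai2 even had the opposite sign, at -0.48, and Cdh1 was at -0.01.

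Over all kept D cells, Fn1 was higher, and Cdh1 lower, at higher Acta2 counts of a cell. These bins do not hold uroplakin-positive or cycling cells out. With 0, 1, 2, 3 to 5 and over 5 Acta2 UMIs (4681, 104, 26, 37 and 48 cells), Fn1 stood at 15.3, 92.6, 155, 221 and 220 CPM. Cdh1 stood at 299, 272, 217, 211 and 194 CPM in the same bins, where the interval of the last (144 to 254) lay below that of the first (291 to 307). The first bin includes uroplakin-positive cells, a class at 341 CPM of Cdh1. The last bin overlapped the remaining D cells, at 238 CPM (227 to 249). Whether Cdh1 follows Acta2 within a class was not tested. Cdh3 was at 22.7 CPM with 1 Acta2 UMI (11.7 to 39.6), overlapping the 30.8 CPM of cells without, and at 85.1, 108 and 98.7 CPM with more. Snai2 went from 33.1 to 79.7 CPM (49.3 to 122) and Epcam from 467 to 630.0 CPM (538 to 733) between the first and last bins. Epcam RNA was thus not lower in the cells with most Acta2. Cd44 had no order over the bins, from 61.7 to 110 CPM with overlapping intervals.

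**Figure D4:**
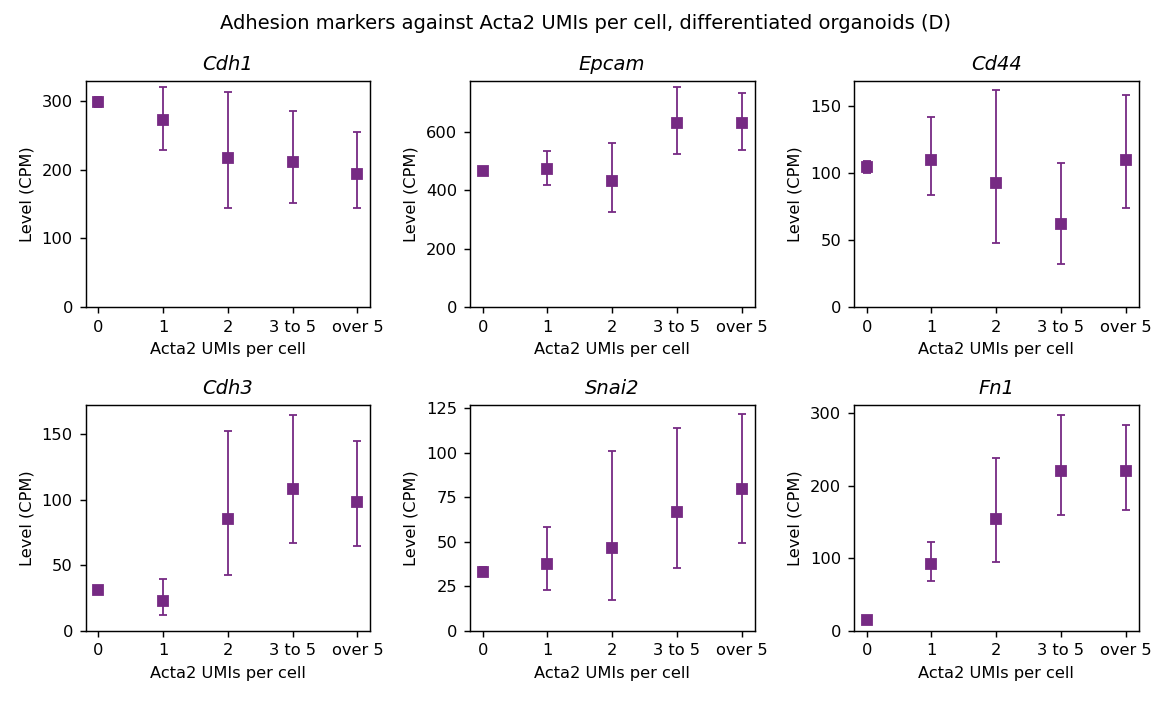
Level in CPM of the 6 members with at least 100 UMIs in D cells with 0, 1, 2, 3 to 5 and over 5 Acta2 UMIs, with exact 95% Poisson intervals where these exceed the symbol. Fn1 goes from 15.3 CPM in cells without Acta2 to 220 CPM in cells with over 5 UMIs, and Cdh1 from 299 to 194 CPM. Uroplakin-positive and cycling cells are included in the bins.

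In P the 21 Acta2-positive cells gave wide intervals. Snai2 (11 UMIs, log2 ratio 1.45, 0.44 to 2.29) and Cdh3 (4 UMIs, 1.17, -0.71 to 2.53) were past the fold and 0 members were at least 2-fold lower, against 14.0% of 9486 genes higher and 26.7% lower. With the shift of -0.09 removed both counts were the same, against 16.1% and 25.9%. The value of Cdh3 rested on few cells: it was at 0.99 by the mean of per-cell CPM and at 0.93 without the 5% of cells with the most UMIs, and Cdh3 had 0 UMIs in the 5 P cells with at least 2 Acta2 UMIs and in the 12 Acta2-positive cells after thinning. Epcam had 55 UMIs there, at 583 CPM (439 to 759) against 317 CPM (311 to 324), a log2 ratio of 0.88 (0.47 to 1.26). Cdh1 (18 UMIs, 0.73, -0.03 to 1.39) and Cd44 (15 UMIs, 0.72, -0.12 to 1.45) had intervals that reached below 0. Fn1, with 0 UMIs in these cells and 24 in the others, was not detectable there at this depth: the floor of 3 UMIs stood at 31.8 CPM.

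Markers of other cell types were also set beside the Acta2 results in D. The 6 fibroblast markers summed to 61.8 CPM in Acta2-positive cells (48.1 to 78.2) and 62.6 CPM in the others, with Col1a2 at 0 in both. Of 5 smooth muscle markers besides Acta2, 3 had a UMI in Acta2-positive cells, 4 UMIs in all or 3.58 CPM (0.976 to 9.17) against 0.104 CPM (0.0126 to 0.377) in the others, with intervals apart on few UMIs. Myh11 and Des had no UMI in any kept D cell, so their zeros cannot tell these cells apart. Pericyte markers summed to 60.9 and 48.7 CPM, with Pdgfrb at 0 in both and Cspg4 at 0 in Acta2-positive cells. Of the 2 with a UMI in Acta2-positive cells, Rgs5 was higher there at 34.0 against 9.85 CPM, a log2 ratio of 1.79 (1.25 to 2.30). The other, Notch3, made up the rest of the sum there and went the other way. Leukocyte markers to 9.85 and 20.4 CPM with Ptprc at 0 in Acta2-positive cells, endothelial markers summed to 3.58 and 3.34 CPM with Cdh5 at 0, and glial markers to 1.79 and 2.45 CPM with Sox10 at 0. The 7 urothelial epithelium markers summed to 19258 CPM in Acta2-positive and 15915 CPM in other cells, and among them Krt14, a basal keratin, was higher at a log2 ratio of 1.30 and Krt19, a simple-epithelium keratin, lower at -0.89. All 12 D cells with at least 3 UMIs of leukocyte markers had Epcam. Their part, and that of doublets and of RNA free in the droplets, in the results was not tested.

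The molecules that work with these members were taken as lists, read beside a median log2 ratio of 0.41 over all genes tested between D and P and of 0.02 between Acta2-positive and other D cells. Their ratios are given without the shift removed, and the counts past the fold a second time with it removed, for which the shares over all genes are those given above. Of 9 adherens junction partners of the cadherins, 0 were past 2-fold in either comparison. Their median was 0.44 between the libraries, led by Ctnnb1 (beta-catenin, 0.91), Vcl (vinculin, 0.87) and Ctnna1 (alpha-catenin, 0.79), and -0.12 in Acta2-positive D cells, where Vcl was at 0.77, Nectin4 at -0.60 and Nectin2 at -0.56. Of 8 other cadherins only Cdh13 (T-cadherin) passed the minimum, at -0.26 and 0.08.

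Of 6 other transcription factors of the epithelial-mesenchymal transition, only Twist2 passed the minimum, with 188 UMIs in P and 21 in D, a log2 ratio of -2.77 (-3.49 to -2.11), and 0 UMIs in Acta2-positive D cells. The floor of 3 UMIs stood at 2.69 CPM in those cells, above the 1.03 CPM of Twist2 in all D cells, so that 0 cannot show a lower level. Of 7 regulators of the epithelial state, 2 were at least 2-fold higher in D, Ovol2 at 1.40 and Grhl1 at 1.08, and 0 lower, with a median of 0.48. With the shift removed 0 were past the fold, Ovol2 being at 0.98 and Grhl1 at 0.66. In Acta2-positive D cells their median was -0.45, with 0 past the fold (1 lower, Grhl3, with the shift removed) and the lowest values for Grhl3 (-0.99), Grhl1 (-0.69) and Grhl2 (-0.49). Of 7 partners and relatives of EpCAM, 3 were at least 2-fold higher in D (Tspan8 1.45, Cldn7 1.14 and Cd9 1.05) and 0 lower, with a median of 0.80. With the shift removed 1 was, Tspan8 at 1.02, with Cldn7 at 0.71 and Cd9 at 0.63. In Acta2-positive D cells, where Epcam itself was slightly higher, 1 was at least 2-fold lower (Tspan8 at -1.03) and the median was -0.28.

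Of 7 integrin genes for fibronectin receptors, 4 passed the minimum between the libraries and 1 was past the fold, Itgb6 at 1.56, while Itga5, the chain of the classical fibronectin receptor, was at -0.63 and, with the shift removed, at -1.05, which made 1 higher and 1 lower. In Acta2-positive D cells, beside Fn1, Itgb6 (1.31), Itgav (0.87) and Itgb1 (0.64) were higher, with 1 of 3 past the fold and a median of 0.87. Of 12 genes of CD44 and hyaluronan, 8 passed the minimum between the libraries, 1 higher (Tmem2, a membrane protein of hyaluronan turnover, at 1.90) and 1 lower (Has3, a hyaluronan synthase, at -2.22), with a median of 0.28. Msn (moesin, 1.53) and Mmp14 (a membrane protease that cuts CD44, 1.02) were past the fold in Acta2-positive D cells, where Ezr (ezrin) was at -0.55, the median was 0.07 and Cd44 was level. With the shift removed Mmp14 was at 0.95 and Msn alone was past the fold there, and the counts between the libraries were the same.

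Of 13 other mesenchymal genes 4 passed the minimum in D over P, and 3 were past the fold, all higher: Sparc at 3.23, S100a4 at 1.92 and Thbs1 (thrombospondin) at 1.38, with a median of 1.65. With the shift removed 2 were, Sparc at 2.81 and S100a4 at 1.503, and Thbs1 was at 0.96. In Acta2-positive D cells Tnc (tenascin-C, 3.22), Sparc (2.64) and Thbs1 (1.11) were higher, while S100a4 was at -0.59. All 4 contractile genes past the minimum were at least 2-fold higher in Acta2-positive D cells, led by Cald1 (3.02), Cav1 (2.98) and Tpm1 (2.07), with a median of 2.52. Between the libraries Cald1 (2.56) and Tpm1 (1.53) were higher in D and Cav1 lower at -1.14, counts that were the same with the shift removed. Since Acta2 chose the cells, its co-varying contractile genes are given as a description.

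The genes most like each member were sought over the 7 library-by-class groups among 4926 genes with at least 1000 UMIs, by Pearson correlation of log2(CPM + 1). These 7 points share their libraries and classes, and the correlations are a description. Cdh1 was most like Il18 (0.997), Aktip (0.997) and Srgap1 (0.992), and Cdh3 most like Pde7a (0.994), Yipf5 (0.986) and Ajuba (0.984). Snai2 was most like Jag2 (0.997), Vsnl1 (0.990) and Bcam (0.985), Epcam most like Cacybp (0.982), Sucla2 (0.982) and Tab2 (0.980), and Cd44 most like Vps36 (0.980), Snx27 (0.973) and Suz12 (0.963).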

How the data were processed

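Single-cell RNA was measured in 1 library of proliferative and 1 of differentiated mouse urothelial organoids. Per the study's methods, the authors ran bcl2fastq 2.19.0 and Cell Ranger 3.0.2, aligned to the GRCm38/mm10 transcriptome, and filtered in Seurat. The deposited matrices hold whole-number UMI counts per gene and barcode, unnormalized and not yet filtered on mitochondrial content. The authors' filter was applied here: over 800 genes and at most 12% mitochondrial UMIs. Admitting cells with exactly 800 genes would keep 6826 in place of 6818 P cells and 4896 D cells either way. The 3′ chemistry counts RNA ends, so splice forms were not told apart.

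Counts were summed over cells and divided by the total (CPM). Intervals were exact Poisson for levels, Clopper-Pearson for shares and conditional binomial for ratios. Folds of 2 were read where a gene had 100 or more UMIs in the compared groups together. A floor of 3 UMIs stood in for a count of 0. The median log2 ratio of genes with at least 100 UMIs in each group was the shift removed. No doublet caller was run, and leaving out the 5% of cells with the most UMIs was an alternative. Of 31053 gene identifiers 30934 were placed with GENCODE M21. All 135 genes of 19 lists matched, with Cemip2 read under its older symbol Tmem2. Python 3.11.15, numpy 2.4.6, pandas 2.3.3, scipy 1.17.1 and matplotlib 3.10.9 were used, and the counting was tested on simulated data. The text names all members, Acta2, up to 3 genes per list with the largest absolute log2 ratio and the 3 genes most like each member with at least 1000 UMIs. Genes of the cell type markers, Krt5, Nectin2, Grhl2 and Ezr are named besides, after their values were seen. Members and lists were chosen with earlier results of these data known.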

Additional observations from a re-analysis of the deposited data

Results flagged for a closer look

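Cdh1 and Cd44 had opposite signs in Acta2-positive over other cells of the 2 libraries: the log2 ratio of Cdh1 was 0.73 in P and -0.34 in D, and that of Cd44 was 0.72 in P and -0.070 in D. The difference between the libraries was not tested, the values from proliferative organoids rest on 18 and 15 UMIs in 21 cells, and 3 of these 4 intervals reach across 0, that of Cdh1 in D being the exception. Of the 2 genes, Cdh1 in P turned to -1.23 in cells with at least 2 Acta2 UMIs and to -0.40 in thinned cells, and Cd44 in D ranged from -0.21 to 0.07 over the alternatives, so that neither contrast of signs held throughout. Both turned values of Cdh1 rest on very few molecules. The 3 P cells with 2 Acta2 UMIs held 0 UMIs of Cdh1 and the 2 cells with 3 to 5 held 1. Of the 12 thinned Acta2-positive P cells, 2 had Cdh1.

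Barcodes left out by the cell filter also carried members. In the 2079 left-out D barcodes, per 1000000 non-mitochondrial UMIs, Cdh1 stood at 536 (505 to 569), Cdh3 at 64.7 (54.2 to 76.6), Epcam at 380 (354 to 407), Fn1 at 97.5 (84.5 to 112) and Cd44 at 224 (204 to 245). In the kept D cells these were 318, 35.1, 507, 24.6 and 112 on the same scale. They were 164, 34.1, 284, 0 and 121 in the 1376 left-out P barcodes and 123, 20.2, 338, 0.956 and 102 in the kept P cells. Fn1, Cdh1, Cdh3 and Cd44 were thus higher, and Epcam lower, in left-out than in kept D barcodes. Cdh1, Cdh3, Cd44 and Epcam had the same directions in P, where the intervals of Cd44 overlapped. How many of all genes did the same was not counted. Whether damage or cell type set this was not tested.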

How the results depend on the processing

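Of the values compared under another setting, 136 stayed within the limits set, 33 moved and 2 turned. Both that turned were Cdh3 in Acta2-positive P cells, which had 0 UMIs, and so no ratio, with at least 2 Acta2 UMIs and in thinned cells. A turn was read only where the main log2 ratio was at least 1 in size. Smaller ratios that changed sign are therefore among the values that moved or stayed within limits. Among them, Cdh1 in Acta2-positive P cells went from 0.73 to -1.23, the latter on very few UMIs in 5 cells. Snai2 between D and P went from -0.33 to 0.61. Snai2 in Acta2-positive D cells went from 0.70 to -0.48. Between D and P the count of members at least 2-fold higher went from 2 to 1 with the median ratio of genes and to 4 with no minimum for genes, where the count lower went from 0 to 1. In Acta2-positive P cells the count higher went from 2 to 1 with the mean of per-cell CPM. The count lower there went from 0 to 2 with no minimum, to 2 with at least 2 Acta2 UMIs (5 cells) and to 1 in cells thinned to 2100 UMIs. In Acta2-positive D cells the count higher went from 2 to 1 with the median ratio, with totals without mitochondrial and ribosomal protein genes, with the mean of per-cell CPM, in cells with no uroplakin UMI that are not cycling, and in thinned cells, and left Fn1 alone. The count lower went from 0 to 1 with no minimum. The cause of these moves was not tested. Fn1 lay between 4.25 and 5.13 over the alternatives of D over P and between 2.54 and 3.75 over those of Acta2-positive D cells. Snai2 lay between -0.75 and 0.61 in the first and between -0.48 and 1.04 in the second, and Cd44 between -0.31 and 0.21 in the first. In uroplakin-positive D cells Cdh3 lay between -2.29 and -1.58, Fn1 between -2.55 and -1.62 and Snai2 between -2.33 and -1.90, lower under each alternative run. The shares of Cdh1 and Epcam beside Fn1 kept their direction. Each group held 1 library, so cultures and media cannot be told apart, and Vim, Cdh2 and Zeb1 were under the minimum of 100 UMIs. No paired analysis was possible because each group has 1 library and the result comes from no test.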
